A study of Mus musculus with 12 samples.

Results

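Glucose is made and released by hepatocytes through a short chain of enzymes, and 8 genes of that chain and of the glycogen store beside it are described here in the livers of neonatal mice with phlebotomy-induced anemia (PIA) and of control pups. The 8 genes, Pck1, Pck2, G6pc, Fbp1, Pcx, Slc37a4, Gys2 and Pygl, were chosen by name for their function, not by a measured value, although earlier results of these data were known. They were matched to the gene symbols among the 32285 genes listed for each library. Each of the 8 was found, and each passed the filter on low counts in hepatocyte-like cells. The livers were taken at postnatal day 11 from C57BL6/J pups, 6 naive controls and 6 with PIA, with 1 single-cell library per mouse, all under the same batch label. PIA pups lost 20 µL of blood per g of body weight from the facial vein at each of 5 draws between day 2 and day 10, and for controls each day brought a sham puncture without bleeding. The pups were nursed by the dam, and the time since the last feed was not given in the sources used here.

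In gluconeogenesis, pyruvate enters through pyruvate carboxylase (Pcx), oxaloacetate is turned into phosphoenolpyruvate by the phosphoenolpyruvate carboxykinases of the cytosol (Pck1) and the mitochondrion (Pck2), and fructose-1,6-bisphosphatase (Fbp1) bypasses the committed step of glycolysis. Glucose-6-phosphate is then carried into the endoplasmic reticulum by its transporter (Slc37a4) and split by the catalytic subunit of glucose-6-phosphatase (G6pc), which frees glucose for the blood. Liver glycogen synthase (Gys2) builds the glycogen store and liver glycogen phosphorylase (Pygl) breaks it down, and a suckling pup on fat-rich milk is known to rely on both routes between feeds.

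The libraries held 45751640 to 74344118 UMIs (unique molecular identifiers, 1 for each captured RNA molecule) in 14184 to 21186 kept cells, and 18195 of 206146 kept cells (8.83%) fell into 4 hepatocyte-like clusters. These clusters were named from hepatocyte markers, all 10 of which were detected, and the markers together made up 141977 to 157195 CPM (a gene's counts scaled to a common library total) in the controls and 112675 to 155163 in the anemic mice. The name was weakest for cluster 27, with 8 of the 10 markers raised over all other cells and 0 among its 10 leading genes. Its mean marker log2 fold over other cells was 1.76. Clusters 25, 26 and 28 had 10 raised and means of 3.25 to 4.56. A mouse contributed 708 to 2815 hepatocyte-like cells and 1458239 to 4636934 UMIs from them. Anemia 2 and anemia 3 stood apart from the other anemic mice, with the fewest hepatocyte-like cells (708 and 783, 3.97% and 3.70% of their kept cells, against 10.2% to 15.6% in the other 4) and the lowest median mitochondrial share in them (0.715% and 1.02%, against 2.52% to 2.78% in the other 4 and 2.25% to 3.29% in controls). Hepatocyte-like cells made up 7.89% ± 1.11 of a control and 10.03% ± 5.13 of an anemic mouse's kept cells (mean ± SD over 6 mice), a difference of 2.14 percentage points that lay within the spread between mice (exact two-sided permutation test, p = 0.333). Any pair of libraries shared 51 to 121 cell barcodes. Y-linked genes stood over 100 CPM in 2 control and 4 anemic mice, so sex was not balanced, and with Y-linked expression as a covariate (51.5% of genes called) the log2 fold changes of Fbp1, Slc37a4, Pygl and Pck1 between the groups were 1.28, 1.10, 0.66 and 0.75, all called, while Pcx was not (adjusted p = 0.068).

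The genes lie on 8 different chromosomes of the mouse genome (GRCm38, GENCODE M21), Pck1 at chr2:173153048-173159273, Pck2 at chr14:55540266-55551242, G6pc at chr11:101367561-101377903, Pcx at chr19:4510472-4621752 and Slc37a4 at chr9:44396852-44402968 on the plus strand, and Fbp1 at chr13:62864753-62888282, Gys2 at chr6:142422613-142473109 and Pygl at chr12:70190811-70231488 on the minus strand. RefSeq promoter windows of 300 bases (250 before and 50 after an annotated start, GRCm38.p6) were read for 7 of the 8 genes, 10 windows in all. The windows of the 4 genes that were higher in anemic hepatocyte-like cells in each of 12 fits that left out a mouse (Pck1, Fbp1, Slc37a4 and Pygl) are shown 5′ to 3′ in the direction of the gene. Capitals mark TGACG, the core of the cyclic AMP response element through which glucagon signaling reaches its targets, and ACGTG, the core of the hypoxia response element, each searched on both strands. For Slc37a4, which has 3 windows, the most upstream is given.
Pck1, chr2:173152823-173153122, plus strand: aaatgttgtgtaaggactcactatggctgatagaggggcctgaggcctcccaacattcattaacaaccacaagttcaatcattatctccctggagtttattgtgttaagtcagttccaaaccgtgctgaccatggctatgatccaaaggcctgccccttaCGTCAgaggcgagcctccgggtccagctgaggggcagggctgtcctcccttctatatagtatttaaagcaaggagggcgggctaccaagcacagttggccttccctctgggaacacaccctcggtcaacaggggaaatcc
Fbp1, chr13:62888233-62888532, minus strand: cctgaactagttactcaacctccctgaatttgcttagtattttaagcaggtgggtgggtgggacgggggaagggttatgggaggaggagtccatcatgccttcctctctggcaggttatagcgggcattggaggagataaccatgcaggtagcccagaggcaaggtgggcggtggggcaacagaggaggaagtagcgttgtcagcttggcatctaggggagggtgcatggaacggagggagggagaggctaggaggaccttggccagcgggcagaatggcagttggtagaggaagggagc
Slc37a4, chr9:44396696-44396995, plus strand: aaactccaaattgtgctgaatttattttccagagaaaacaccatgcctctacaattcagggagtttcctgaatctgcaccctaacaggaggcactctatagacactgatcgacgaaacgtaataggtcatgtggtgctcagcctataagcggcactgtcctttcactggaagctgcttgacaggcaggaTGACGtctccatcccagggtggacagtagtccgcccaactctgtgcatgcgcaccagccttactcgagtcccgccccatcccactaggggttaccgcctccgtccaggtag
Pygl, chr12:70227634-70227933, minus strand: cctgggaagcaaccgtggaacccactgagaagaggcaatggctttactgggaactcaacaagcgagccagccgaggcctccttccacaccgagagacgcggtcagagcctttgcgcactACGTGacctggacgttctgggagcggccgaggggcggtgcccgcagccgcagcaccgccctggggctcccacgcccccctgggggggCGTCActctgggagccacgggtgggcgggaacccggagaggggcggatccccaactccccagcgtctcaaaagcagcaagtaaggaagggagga
TGACG stood in 4 of the 10 windows (Pck1, Pygl and 2 overlapping windows of Slc37a4), against 20.8% of 32851 mouse promoter windows of the same length. ACGTG stood in 2 of the 10 (Pygl and the first window of Pcx, where CACGTG reads as the motif on both strands), against 19.6%. GTAAACA, the site of FOXO factors, stood in 0 of the 10 windows and in 3.65% of all windows. These matches describe letters in a window and not bound sites, and the Fbp1 window held none of the 3 motifs.

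To compare the groups, the UMIs of hepatocyte-like cells were summed per mouse and tested with edgeR, and a gene was called at a Benjamini-Hochberg (BH) adjusted p under 0.05 over the 12100 genes tested. Of the 8 genes, 5 were higher in anemic mice (Fbp1, Slc37a4, Pygl, Pck1 and Pcx), 0 were lower, and G6pc, Gys2 and Pck2 did not pass. The background was high, since 27.9% of all tested genes were called higher and 27.0% lower (54.9% in all), so a call alone says little in this comparison. Without anemia 2 and anemia 3 the same 5 genes were called higher (Fbp1 1.23, Slc37a4 0.97, Pygl 0.80, Pck1 0.67 and Pcx 0.29 on the log2 scale), with 52.8% of genes called. The median log2 fold change of the 8 genes was 0.47, against -0.03 for all genes. Values of the full sums and of the landmark sides are CPM scaled by TMM factors of edgeR. In the full sums these factors ran from 1.11 to 1.22 in control and from 0.84 to 0.93 in anemic mice. Levels in single clusters or other classes, and sums of marker genes, are plain CPM over all genes, mitochondrial and ribosomal ones included. Without TMM factors the median of all genes moved to -0.43, 60.7% of genes were called (1590 higher and 5757 lower instead of 3377 and 3270), and the 8 genes had 3 higher (Fbp1, Slc37a4 and Pygl) and 1 lower (Gys2). A UMI marks a molecule by its 3′ end, so levels were not divided by gene length, and levels of different genes are not ranked against each other.

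In the sums of all hepatocyte-like cells Fbp1 showed the largest log2 fold change of the 8. It ran from 1052 to 1349.6 CPM in control hepatocyte-like sums (median 1244) and from 2363 to 3306 CPM in anemic ones (median 2888). Every anemic mouse lay above every control, as was the case for 17.5% of all tested genes. The log2 fold change was 1.22 ± 0.10 (SE; adjusted p = 1.2e-07), a 2.32-fold higher level, and 0.83 without TMM factors. Of cells thinned to 500 UMIs, 47.0% ± 1.92 held an Fbp1 UMI in control and 62.0% ± 4.86 in anemic mice, where B-like cells, which should lack the gene, had 2.57% and 1.97% (median depths 1358 and 1151 UMIs in hepatocyte-like, 1334 and 1468 in B-like cells, and 77.3% and 84.2% of hepatocyte-like cells before thinning).

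Pck1, the step most closely tied to hormonal control of the pathway, ranged more widely among the controls. Its lowest, median and highest values were 556, 857 and 973 CPM in control and 805, 1226 and 1496 CPM in anemic mice. The groups overlapped, because anemia 5 (805 CPM) lay below 3 controls, and control 1 and control 2 (556 and 566 CPM) lay well below the other 4 controls. Control 1 and control 2 were also the controls with high Y-linked genes (288 and 305 CPM). Among anemic mice, both the lowest and the highest Pck1 value (anemia 5 and anemia 6) came with high Y-linked genes (239 and 250 CPM). The part of sex in the low control values was not tested. The log2 fold change was 0.60 ± 0.16 (adjusted p = 0.0053), and it stayed called in all 12 fits that left out a mouse (0.49 to 0.67). Without TMM factors it was 0.21 (adjusted p = 0.26), with called doublets left out 0.33 (adjusted p = 0.097, 49.3% of genes called), and in cells poor in markers of other classes 0.32 (adjusted p = 0.12, 44.6% called).

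Pck2, the mitochondrial enzyme, was close to the limit of detection in hepatocyte-like cells, with 8 to 31 UMIs per mouse. It ran from 3.86 to 7.79 CPM in control (median 5.46) and from 5.37 to 10.3 CPM in anemic mice (median 6.58), and the ranges overlapped in part. The log2 fold change of 0.33 ± 0.23 (adjusted p = 0.22) was within the spread between mice.

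Pcx, the entry step, ran from 150 to 194 CPM in control (median 172) and from 182 to 224 CPM in anemic mice (median 197). The 2 highest values belonged to anemia 4 and anemia 1, anemia 5 and anemia 6 lay just above the highest control, and anemia 2 and anemia 3 lay below 3 controls. The log2 fold change was 0.23 ± 0.09 (adjusted p = 0.046), a 1.17-fold higher level. This call rested on the settings, since only 5 of 12 fits that left out a mouse kept it, and without TMM factors the value was -0.16 (adjusted p = 0.12). The share of thinned cells with a Pcx UMI was 6.68% ± 0.49 in control and 6.63% ± 0.72 in anemic mice.

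The 2 genes of the glucose-6-phosphatase system behaved differently in these sums. Slc37a4 ran from 37.7 to 48.6 CPM in control (median 43.1) and from 75.01 to 105 CPM in anemic mice (median 88.4). No anemic value reached down to the control range, as was the case for 17.5% of all tested genes. On the log2 scale the difference was 1.04 ± 0.10 (adjusted p = 5.3e-07), a 2.06-fold higher level, and 0.65 without TMM factors. G6pc ran from 144 to 302 CPM in control (median 182) and from 140 to 283 CPM in anemic mice (median 185). In each group a single mouse (control 5 and anemia 4) stood well above the rest, and the groups covered the same range. Between the groups the log2 fold change was 0.02 ± 0.18 (adjusted p = 0.92), and its sign turned with the setting (-0.37 without TMM factors, -0.23 with called doublets left out).

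Of the glycogen pair, Pygl was higher in these sums and Gys2 was not distinguishable between the groups. Pygl ran from 194 to 267 CPM in control (median 245) and from 339 to 447 CPM in anemic mice (median 388). Every anemic mouse lay above every control, again as for 17.5% of all tested genes. Its log2 fold change was 0.71 ± 0.10 (adjusted p = 1.7e-05), a 1.64-fold higher level, and 0.32 without TMM factors (adjusted p = 0.0102). Gys2 ran from 57.0 to 75.6 CPM in control (median 66.6) and from 45.9 to 76.8 CPM in anemic mice (median 67.1). Its 3 highest anemic values matched the highest control, and its lowest values belonged to anemia 3 and anemia 2, the mice with the fewest hepatocyte-like cells. The log2 fold change was -0.01 ± 0.12 (adjusted p = 0.96). Gys2 was called lower without TMM factors (-0.40, adjusted p = 0.0084, or 0.03 above the shifted median of all genes) and with called doublets left out (-0.30, adjusted p = 0.044). A Gys2 UMI was held by 3.37% ± 0.63 of thinned cells in control and 2.36% ± 0.55 in anemic mice.

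**Figure D1:**
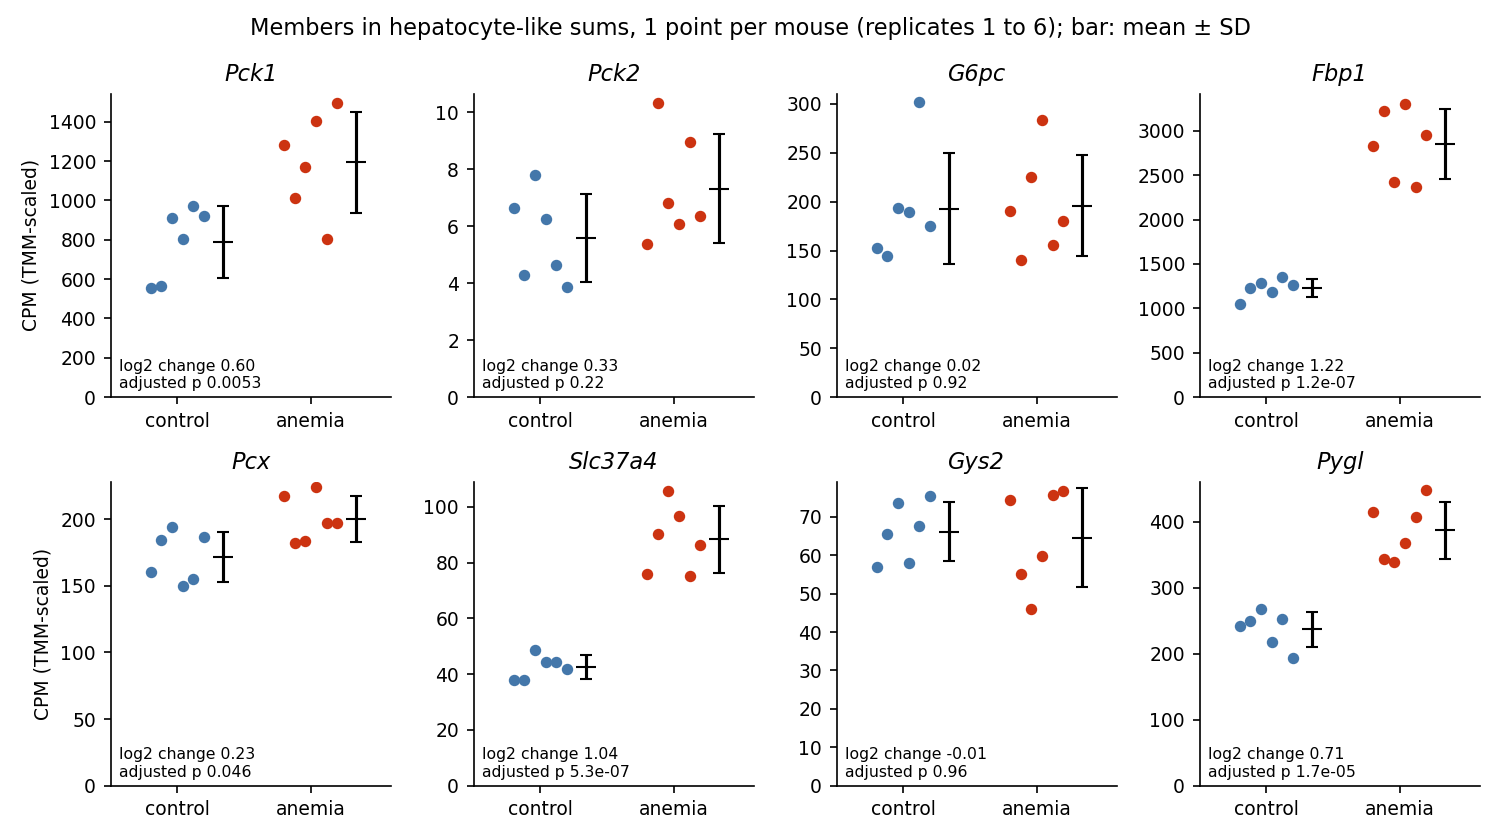
Each panel plots 1 gene, with the TMM-scaled CPM of hepatocyte-like sums on the vertical axis and 1 point per mouse (blue control, red anemia, replicates 1 to 6 from left to right), beside a bar for the mean ± SD. Fbp1, Slc37a4 and Pygl show no overlap between the groups, with anemia higher, as do 17.5% of all tested genes. Pck1, Pcx and Pck2 overlap in part, and G6pc and Gys2 overlap broadly. Without TMM factors Pck1 and Pcx were not called, and Gys2 was called lower.

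Several other measures moved with the groups in the same sums. The 4 clusters (numbered 25 to 28) were mixed differently, with 27.6% to 36.6% of a control mouse's hepatocyte-like cells but 8.77% to 16.2% of an anemic mouse's in cluster 25, and with 9.88% to 21.0% against 23.1% to 41.9% in cluster 27. Clusters 26 and 28 overlapped between the groups. Cluster 25 held the deepest cells (median 3404.5 UMIs) with the highest mitochondrial share (median 15.8%, against 1.55% to 2.33% in the other 3), whereas cells of clusters 26, 27 and 28 had medians of 1602, 974 and 728 UMIs. Fbp1 was among the 10 leading genes of cluster 27, so its level between clusters is a description. Erythroid markers, 7 of 7 detected, summed to 2182 to 13434 CPM in control and 9911 to 33352 CPM in anemic hepatocyte-like cells, endothelial markers (8 of 8) to 402 to 640.3 against 79.7 to 254 CPM, and stellate markers (8 of 8) to 426 to 690 against 28.1 to 171 CPM. Neutrophil markers (8 of 8), of the class with the highest Pygl level, summed to 81.8 to 511 CPM in control (median 149) and 150 to 409 CPM in anemic mice (median 273), and the part of these markers in the results was not tested. Cells poor in markers of other classes were those at or below their own mouse's median share of such markers. Such markers made up 0.448% to 1.56% of all hepatocyte-like UMIs in control and 1.14% to 3.45% in anemic mice. The set therefore need not match the groups in this share. In these cells (44.6% of genes called) 3 of the 8 genes were called (Fbp1 0.93, Slc37a4 0.74 and Pygl 0.42), each at a smaller value than in all hepatocyte-like cells. Pck1 (0.32) and Pcx (-0.092) were not. Leaving the 4 globin genes out of the table, which changes the scaling and not the cells, left the same 5 genes called, at 54.9% of all genes. Fewer molecules per cell and fewer cells of a kind cannot be told apart in such sums, so each cluster was also fitted alone, an alternative chosen after the data had been seen.

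Within single clusters the picture narrowed. Fold changes there are TMM-scaled and leave out mitochondrial and ribosomal genes, but the CPM beside them are plain and count all genes. CPM and fold changes therefore need not match. The high mitochondrial share of cluster 25 also lowers its CPM relative to the other clusters. Of all genes tested, 4.26%, 4.38%, 2.89% and 5.65% were called higher in clusters 25, 26, 27 and 28, and of the 8 genes 5, 2, 1 and 1 were, with 0 called lower. Fbp1 was called in all 4 clusters, with log2 fold changes of 0.75, 0.44, 0.39 and 0.56, each smaller than in the full sums. Its control level ran from 702 ± 68.1 CPM in cluster 25 to 2975 ± 337 in cluster 27, the cluster with the larger share in every anemic mouse. Slc37a4 was called in cluster 25 (33.2 ± 4.81 to 73.2 ± 12.0 CPM, log2 fold change 1.24, adjusted p = 1.0e-05) and in cluster 26 (0.86, adjusted p = 0.0003), and stood at 0.10 and 0.05 in clusters 27 and 28 without a call.

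G6pc, level in the full sums, was called higher in cluster 25, where it ran from 193 to 441 CPM in control and from 366 to 548 CPM in anemic mice (log2 fold change 0.77 ± 0.17, adjusted p = 0.0077). In cluster 27 the value was -0.62 ± 0.27 (adjusted p = 0.23), at control levels of 38.7 ± 11.5 CPM against 272 ± 89.3 CPM in cluster 25. Pcx was likewise called in cluster 25 (224 ± 24.5 to 325 ± 16.7 CPM, log2 fold change 0.65, adjusted p = 0.0003) and not in the other 3 (0.17 to 0.31). Cluster 25 is the one with the highest mitochondrial share.

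For the glycogen pair the clusters and the full sums differed. Pygl reached 0.37 in cluster 25 (adjusted p = 0.049) and stood at -0.00057, -0.02 and -0.10 in clusters 26, 27 and 28, although it was called in the full sums. Its control level was 152 ± 12.96 CPM in cluster 25 and 540.4 ± 87.3 CPM in cluster 27. Gys2 stood at 0.10 in cluster 25 and at -0.54, -0.64 and -0.50 in clusters 26, 27 and 28, none of them called (lowest adjusted p = 0.050 in cluster 27, where it went from 111 ± 26.5 to 65.9 ± 16.6 CPM). Pck1 was positive in all 4 clusters (0.50, 0.29, 0.37 and 0.28) and called in none (lowest adjusted p = 0.088). Pck2 was tested in clusters 25 and 26 only (-0.34 and -0.37, not called).

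**Figure D2:**
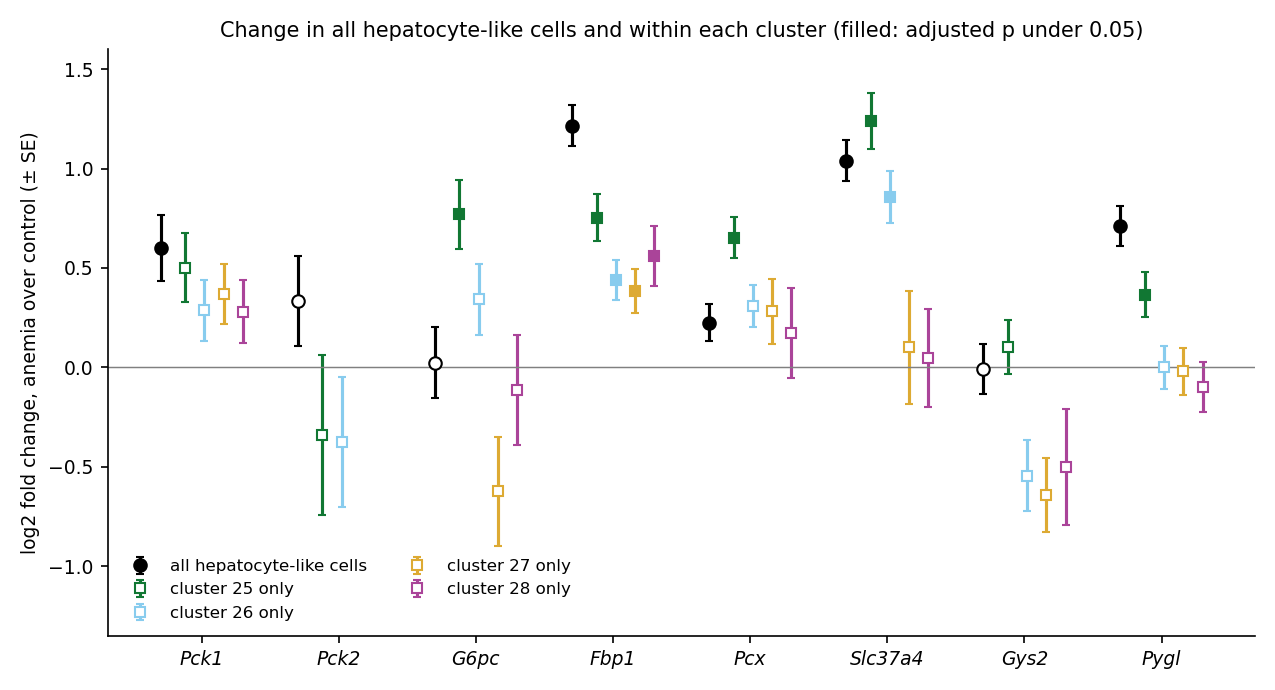
The vertical axis gives the log2 fold change, anemia over control, with its SE, and the horizontal axis the 8 genes, with black circles for all hepatocyte-like cells and coloured squares for clusters 25, 26, 27 and 28 alone, filled where the adjusted p was under 0.05. Fbp1 is filled throughout, Slc37a4 is high in clusters 25 and 26 only, and the black circle of Pygl (0.71) lies above all 4 of its squares. Pck2 has no square for clusters 27 and 28, where it was not tested.

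In the mature liver, gluconeogenesis is known to be strongest around the portal vein and glycolysis around the central vein. Cells with at least 5 UMIs of 20 landmark genes (10 portal, 10 central, none of them among the 8) were therefore split at each mouse's own median of the portal share of landmark UMIs, which gave 5959 portal-side and 5899 central-side cells, and the sums of both sides were compared with the mouse as a block. Of 10257 genes, 43.6% were called, 22.0% higher on the portal and 21.7% on the central side. Among the 8 genes, 4 were higher on the portal side (Fbp1, Pck1, Pygl and G6pc) and 1 on the central side (Pcx).

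Fbp1 stood at 2846 ± 1081 CPM on the portal and 1474.5 ± 758 CPM on the central side (SD, n = 12 mice; log2 fold change 1.04 ± 0.09, adjusted p = 7.6e-10). Pck1 stood at 1406 ± 443 against 737 ± 218 CPM (0.94 ± 0.08, adjusted p = 3.5e-10), and Pygl at 402 ± 117 against 247 ± 63.4 CPM (0.71 ± 0.07, adjusted p = 1.7e-08). Each of these 3 genes was higher on the portal side in 12 of 12 mice. G6pc was higher in 10 of 12 mice (224 ± 50.1 against 188 ± 63.2 CPM, 0.26 ± 0.08, adjusted p = 0.0068), but stood at 0.047 (adjusted p = 0.65) with called doublets left out, where 43.1% of genes were called. Pcx was lower on the portal side in 11 of 12 mice (164 ± 23.0 against 208 ± 28.8 CPM, -0.33 ± 0.07, adjusted p = 0.0006). Slc37a4 (-0.03 ± 0.10), Gys2 (0.17 ± 0.09) and Pck2 (0.19 ± 0.22) were not called. Slc37a4 was, however, called higher on the central side with called doublets left out (-0.31, adjusted p = 0.0088), and Gys2 was called higher on the portal side in control mice only (0.31, adjusted p = 0.021, 38.9% of genes called).

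The portal-side difference of Fbp1 was smaller in anemic mice as a ratio, whereas its gap in CPM was larger. In control mice Fbp1 stood at 1888 ± 142 against 790 ± 96.2 CPM, and in anemic mice at 3805 ± 586 against 2159 ± 358 CPM. The difference between the groups was -0.44 ± 0.12 on the log2 scale (interaction term added after the data had been seen, adjusted p = 0.031, 4.33% of genes called). Slc37a4 was higher on the portal side in 5 of 6 control mice and in 0 of 6 anemic mice, but this difference did not pass over all genes (-0.49 ± 0.17, adjusted p = 0.099). For the other 6 genes the difference ran from -0.34 to 0.16 and was not called.

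The landmarks themselves moved with the groups, which sets a limit on these sides. In the anemic mice 8 of 10 portal landmarks were called higher and 0 lower, and 7 of 10 central ones were called lower and 1 (Oat, 0.58) higher, against 27.9% of all genes higher and 27.0% lower, and the median portal share of a mouse ran from 0.29 to 0.90, so a side does not mark the same position in every mouse. Of the central landmark UMIs in the cells scored, 42.3% came from Cyp2e1 alone. Cluster 27, with the portal landmark Ass1 among its 10 leading genes, made up 39.5% of portal-side and 12.8% of central-side cells. Clusters 25 (17.7% and 29.6%) and 26 (26.7% and 41.7%) had the larger share on the central side, and cluster 28 was near level (16.2% and 15.9%). The part of the cluster mix in the differences between the sides was not tested. The cells of the portal and central sides had medians of 1608 and 2194 UMIs. Within central-side cells alone, Fbp1 (1.48), Slc37a4 (1.25), Pygl (0.73) and Pck1 (0.54) were called higher in anemic mice (52.4% of genes called), and within portal-side cells alone the values were 0.99, 0.70, 0.58 and 0.59, also called (41.8%).

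**Figure D3:**
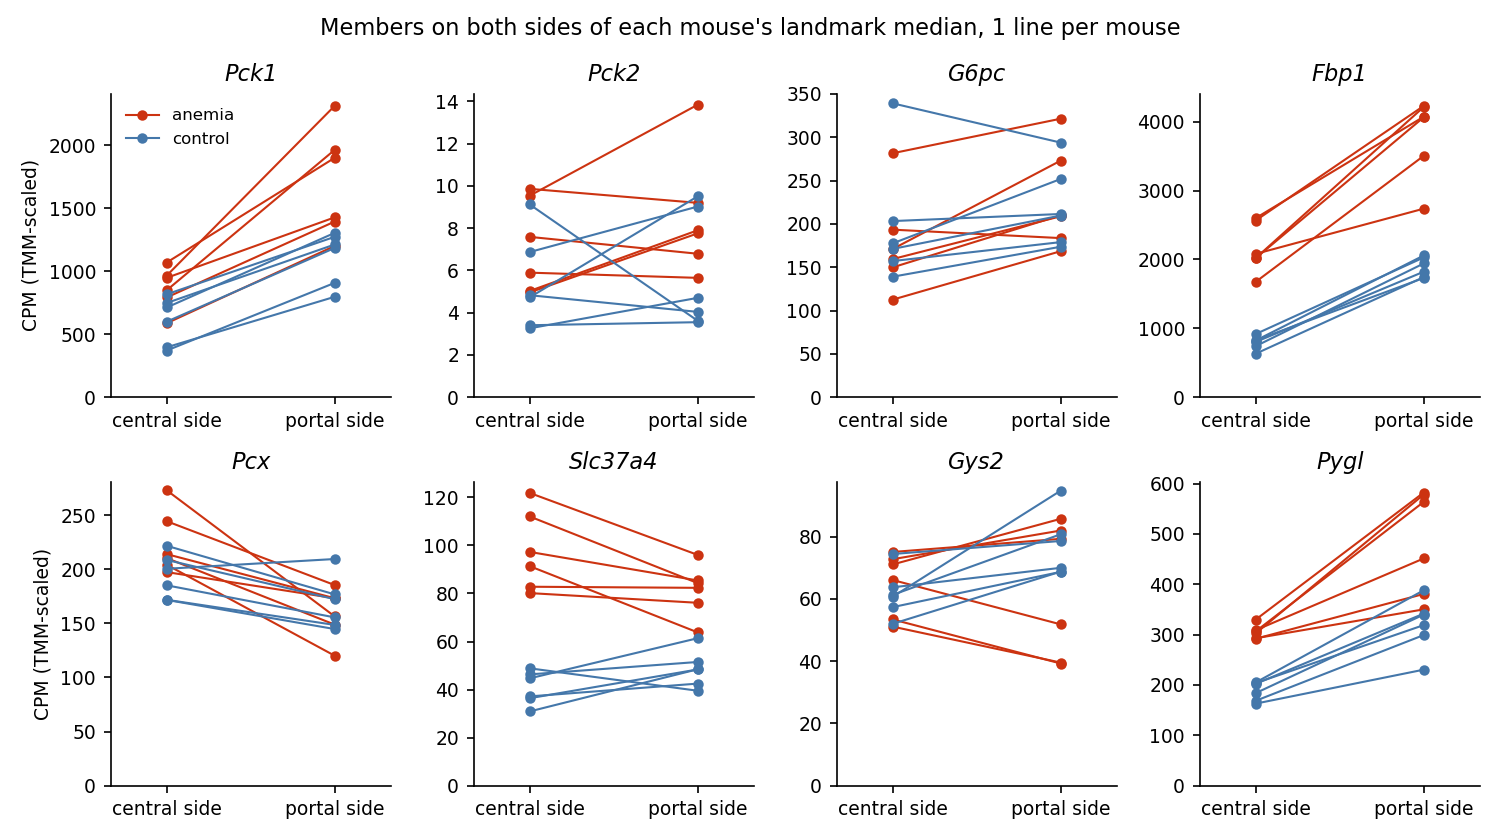
Each panel plots 1 gene as TMM-scaled CPM on the central and portal sides of the landmark median, with 1 line per mouse (blue control, red anemia). All 12 lines rise toward the portal side for Pck1, Fbp1 and Pygl, and 11 of 12 fall for Pcx. For Slc37a4 the red lines are level or fall and 5 of 6 blue lines rise.

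The genes around the 8 were read from lists of the pathway, and each count of calls stands against 27.9% of all tested genes called higher and 27.0% lower, or 1590 and 5757 of 12100 without TMM factors. Of 7 enzymes that work in both directions between glucose-6-phosphate and phosphoenolpyruvate, 7 were called higher in anemic mice (median log2 fold change 1.68), also without TMM factors. Gpi1, which interconverts the hexose phosphates, rose from 132 ± 15.2 to 733 ± 152 CPM (2.47 ± 0.13, adjusted p = 8.4e-10), and Gapdh from 1631 ± 168 to 7757 ± 1358 CPM (2.25 ± 0.12, adjusted p = 8.4e-10). Pgk1 (1.86) and Eno1 (1.68) followed, and all 4 were also called within each of the 4 clusters. Of 5 genes of the opposing glycolytic direction and hepatic glucose transport, 1 was called higher and 0 lower (median 0.19), but 1 higher and 2 lower without TMM factors. The liver phosphofructokinase Pfkl, the enzyme that Fbp1 opposes, rose from 39.6 ± 5.52 to 140.2 ± 20.0 CPM (1.81 ± 0.11). Pfkl was also called within all 4 clusters, whereas the glucose transporter Slc2a2 was not called (181 ± 28.9 and 154 ± 37.5 CPM, -0.22 ± 0.14).

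Of 17 genes that supply carbon to the pathway, 13 were called higher and 3 lower (median 0.85), and 12 and 3 without TMM factors. Serine dehydratase (Sds) rose from 27.8 ± 7.53 to 115 ± 18.1 CPM (2.05 ± 0.15), and it is also 1 of the portal landmarks. The aminotransferases Gpt2 (1.55), Gpt (1.50) and Got1 (1.48) rose, as did lactate dehydrogenase A (Ldha), from 1222 ± 136 to 3163 ± 534 CPM (1.37 ± 0.11). Of these, Got1 and Ldha were called within all 4 clusters and Gpt within 1. The 3 that fell were Aqp9 (-0.99) and Gk (-0.60), which bring in and phosphorylate glycerol, and the lactate and pyruvate carrier Slc16a1 (-0.64). Aqp9, Gk and Slc16a1 fall outside the naming rule and were named after their values had been seen.

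Of 13 other glycogen genes tested, 6 were called higher and 3 lower (median 0.24), but 5 and 5 without TMM factors, with the share of lower calls near that of all genes. Ugp2, which makes the UDP-glucose that glycogen synthase uses, rose from 318 ± 35.3 to 636 ± 78.9 CPM (1.00 ± 0.10). The primer protein gene Gyg (0.97 ± 0.14) and the branching enzyme gene Gbe1 (0.76 ± 0.10) also rose in the full sums, Ugp2 and Gbe1 with calls in 3 clusters and Gyg with calls in 0. A regulatory subunit of phosphorylase kinase, which activates glycogen phosphorylase, was lower (Phka2, 17.8 ± 3.06 to 10.9 ± 1.37 CPM, -0.73 ± 0.15) in the full sums, but stood at 0.076 without a call in cluster 25, the only cluster in which it was tested. Isoforms used mainly by other tissues were low. Of 5 tested, 0 were higher and 2 lower, too few to set apart from the 27.0% of all genes, muscle phosphorylase Pygm (6.86 ± 1.42 to 2.15 ± 0.50 CPM) and Pygb (16.2 ± 1.19 to 12.5 ± 3.69 CPM). Pygm stood at 47.1 ± 16.1 CPM in endothelial-like and 52.5 ± 14.4 CPM in stellate-like cells, whose summed markers were also lower in anemic hepatocyte-like sums (medians of 444 to 151 and of 492.6 to 124 CPM), and their part in its fall was not tested.

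Of 20 transcription factors, receptors and signaling genes that act on the pathway, 4 were called higher and 8 lower (median -0.21), and 3 and 13 without TMM factors, not far from the shares of all genes. The nuclear receptor Nr0b2, a repressor of gluconeogenic genes, rose from 36.1 ± 8.60 to 105 ± 15.4 CPM (1.56 ± 0.14), and Sik1, a kinase that holds back the CREB coactivators, fell from 48.1 ± 5.44 to 18.1 ± 3.90 CPM (-1.38 ± 0.13). Both were called within all 4 clusters. Irs1, an adaptor of the insulin receptor, fell from 35.4 ± 6.48 to 12.2 ± 3.01 CPM (-1.47 ± 0.16), Cebpb rose from 295 ± 59.8 to 669 ± 229 CPM (1.18 ± 0.20) but was called in 0 of the 4 clusters alone, and Trib3, at 1.35 ± 0.90 and 3.22 ± 0.77 CPM, was called higher at very low counts. Of 6 genes used as readouts of fasting and hormones, 2 were called higher and 2 lower, shares near those of all genes. Igfbp1 (536 ± 266 to 1317 ± 263 CPM, 1.30 ± 0.23) and Tat (0.85 ± 0.19) rose, although Igfbp1 stood at -0.11 (adjusted p = 0.76) in portal-side cells alone. In contrast, Pdk4, a fasting-induced kinase that spares pyruvate, fell from 178 ± 39.3 to 65.2 ± 15.0 CPM (-1.44 ± 0.16), and Txnip fell by 0.75. Pdk4 and Txnip were called in 0 of the 4 clusters alone.

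**Figure D4:**
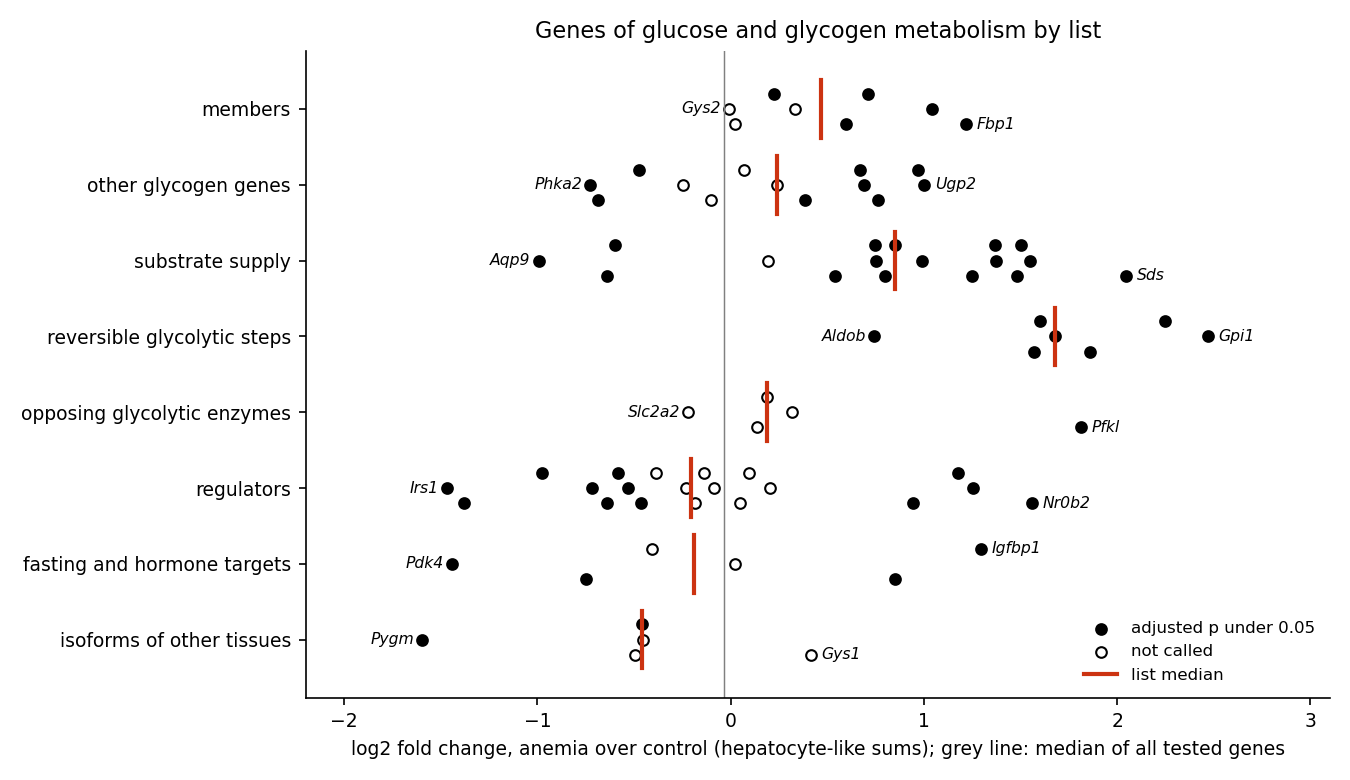
Each point is 1 gene tested in hepatocyte-like sums, with the log2 fold change (anemia over control) on the horizontal axis and the list on the vertical axis, filled where the adjusted p was under 0.05, with a red bar for the list's median and a grey line for the median of all tested genes (-0.03). The reversible glycolytic steps lie farthest to the right (median 1.68), and the 8 genes sit between -0.01 (Gys2) and 1.22 (Fbp1). Without TMM factors the median of all genes is -0.43, and 2 of the opposing glycolytic genes are called lower.

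Across 14 cell classes of the same livers, the 8 genes fell into different patterns (CPM without TMM factors, mean over 12 mice). Pck1 (847 ± 194 CPM), Fbp1 (1704 ± 572), G6pc (170 ± 47.5), Pcx (161 ± 15.3) and Slc37a4 (55.1 ± 16.0) were highest in hepatocyte-like cells, and their range over mice there did not overlap that of the next class, which was B-like for Pck1 (28.8 ± 12.0) and Fbp1 (49.4 ± 15.1) and cholangiocyte-like for the other 3. Of cholangiocyte-like cells, 47.3% were called doublets. Gys2 was also highest in hepatocyte-like cells (57.3 ± 10.7), but its range met that of the small basophil and mast-like class (3.33 ± 11.5, 0 to 40.0). In the 13 other classes Pck1 and Fbp1 stood at 0.59 to 1.07 and 0.43 to 1.13 times the level that hepatocyte RNA, read from the hepatocyte markers in the same class, would give, and G6pc at 0.62 to 1.40 times. The neighbours in the order of those 13 classes overlapped for each of these 3 genes.

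Pygl and Pck2 were not hepatocyte genes in this sense. Pygl was highest in neutrophil-like cells (596 ± 67.3 CPM), with no overlap with hepatocyte-like cells (266 ± 46.4). The basophil and mast-like (243 ± 79.2), monocyte-like (195 ± 24.0) and macrophage-like (115 ± 19.5) classes followed, each overlapping the next above it, and the remaining 9 classes stood between 6.14 and 25.8 CPM. Pck2 was highest in pre-B-like (34.8 ± 6.75), cholangiocyte-like (31.7 ± 9.22), erythroid-like (28.2 ± 13.3) and stellate-like cells (25.5 ± 6.44), which overlapped in sequence, and hepatocyte-like cells (5.58 ± 1.47) came in place 11 of 14. Slc37a4 stood at 2.76 to 10.1 times the level that hepatocyte RNA would give in all 13 other classes, from 3.98 ± 1.30 CPM in erythroid-like to 15.4 ± 7.75 CPM in cholangiocyte-like cells.

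Outside hepatocyte-like cells the comparison of anemic with control mice gave 3 calls among 88 tests of the 8 genes in 13 classes. Pygl was higher in endothelial-like cells (log2 fold change 0.65 ± 0.11, adjusted p = 0.001, with 17.9% of genes called there) and in stellate-like cells (0.48 ± 0.12, adjusted p = 0.0104, 16.1% called). The stellate-like call was lost with called doublets left out (0.17, adjusted p = 0.64, 5.96% called), and 40.6% of stellate-like cells were called doublets, against 13.7% of endothelial-like cells, where Pygl stayed called (0.60, adjusted p = 0.011). Gys2 was lower in macrophage-like cells (-1.26 ± 0.32, adjusted p = 0.04998, 2.99% called), on 90 UMIs in control and 33 in anemic mice. Its level in that class was 0.795 times what hepatocyte RNA would give, and above that level in 4 of 12 mice, so this value cannot be told apart from background. Pygl in neutrophil-like cells, its highest class, stood at 0.13 ± 0.09 (adjusted p = 0.63, 0.386% called). Fbp1 ran from -0.68 to 0.16 in the 12 other classes in which it was tested, and was called in 0 of them. In the other classes the share of genes called was 2.51% for B-like, 1.35% for pre-B-like, 1.12% for T-like, 0.228% for NK-like, 0.771% for monocyte-like, 0.645% for dendritic-like, 0.675% for basophil and mast-like, 0.319% for erythroid-like and 0.0200% for cholangiocyte-like cells, and 0 of the 8 genes were called in these 9.

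**Figure D5:**
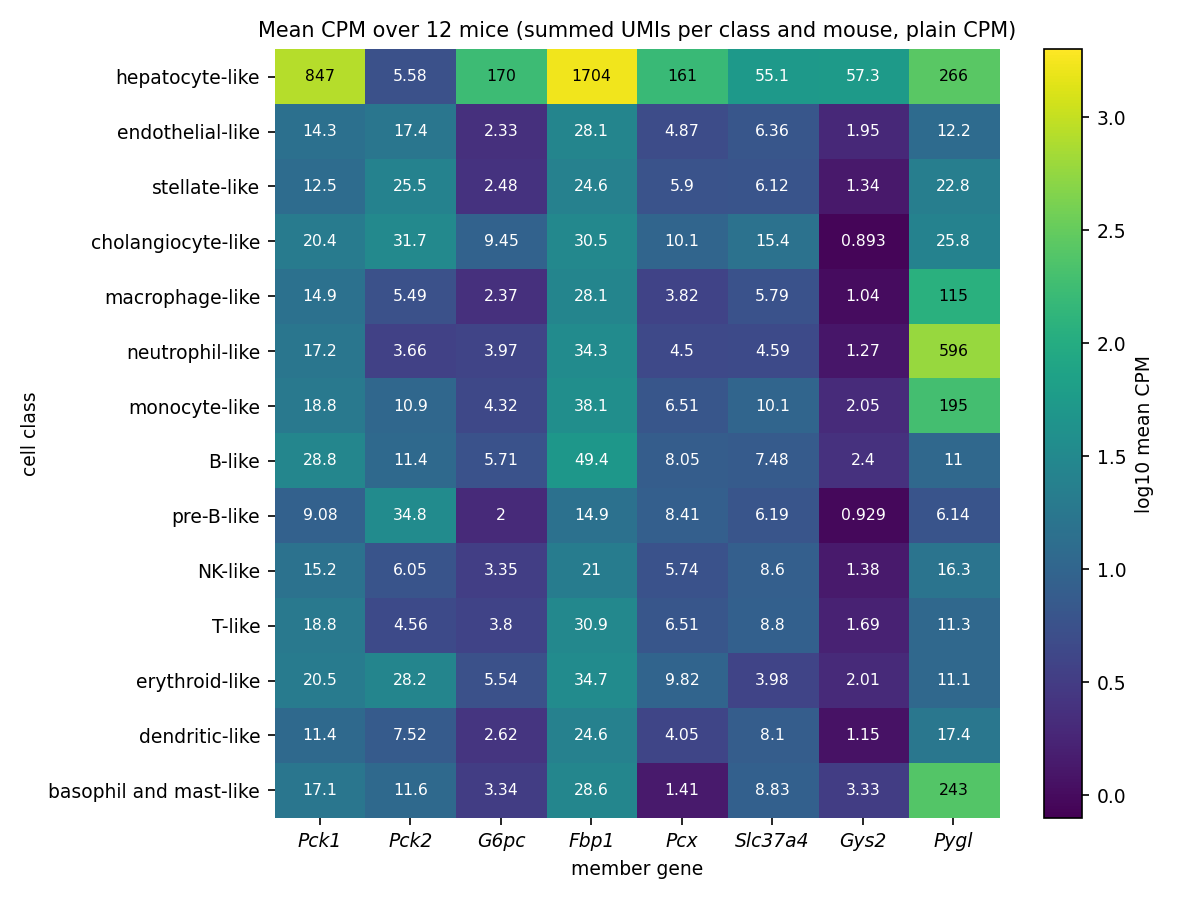
Rows are 14 cell classes and columns the 8 genes, with the mean CPM over 12 mice written in each cell and its log10 as the colour. The hepatocyte-like row is brightest for Pck1, G6pc, Fbp1, Pcx, Slc37a4 and Gys2, whereas the Pygl column is brightest in neutrophil-like cells (596 CPM) and the Pck2 column in pre-B-like cells (34.8 CPM).

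The genes that varied most like each of the 8 among mice were looked up in the hepatocyte-like sums, over 12 mice with each group's mean subtracted and over about 5580 genes, as the highest of many correlations and without a test. Pck1 was most like Ces3a (r = 0.90), Unc119 (0.88) and Stx7 (0.87), and G6pc most like Kynu (0.95), Vti1a (0.86) and Wwox (0.86). Fbp1 went with Paqr9 (0.90), Eno1 (0.83) and Grhpr (0.83), Pcx with Cryz (0.89), Wdr20 (0.85) and Hgfac (0.84), and Slc37a4 with Ncln (0.87), Rpgrip1 (0.83) and Gm28040 (0.83). Pygl went with Echdc3 (0.94), Nit2 (0.93) and Sec14l2 (0.91), Gys2 with Tle1 (0.90), Akirin2 (0.89) and Hsd3b1 (0.88), and the sparse Pck2 with Atp6v1d (0.92), Mcrip1 (0.89) and Pdcd2 (0.84). Among pairs of the 8 themselves the values ran from -0.49 (Slc37a4 with Gys2) to 0.69 (Pck1 with G6pc), followed by Pck1 with Fbp1 (0.60), G6pc with Slc37a4 (0.57) and Pck1 with Slc37a4 (0.56), all from the same libraries and the same cluster mix.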

How the data were processed

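Single-cell RNA of 12 livers was read with 10x Genomics 3′ chemistry. The counts deposited by the authors are UMI counts per gene and barcode, made with Cell Ranger 7.0.0 per the file headers against mm10 (submitters' processing notes), without normalization. The setting for intronic reads was not given in the sources used here. Barcodes of 500 to 50000 UMIs were kept if mitochondrial UMIs did not exceed 50% (206146 of 207537). Leiden clusters (resolution 2, leidenalg 0.10.2) were built from 20 components of 2000 genes and named from marker genes, so names end in -like. Doublets (10.8% to 15.9% of a library, 40.6% of stellate-like and 47.3% of cholangiocyte-like cells) were kept.

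UMIs were summed per mouse and class. A gene was tested if its mean reached 5 UMIs per mouse and it was neither mitochondrial nor ribosomal, with edgeR 4.0.16 (quasi-likelihood, TMM, group as the only term, or mouse as a block for the landmark sides) in R 4.3.3. An SE is the log2 fold change divided by the root of the F statistic. Alternatives used DESeq2 1.42.0, limma 3.58.1 (voom), other scaling, filters and cell sets, a replicate block, Y-linked expression and each mouse left out. Tested on simulated counts of 12100 genes, the hepatocyte-like comparison recovered 77 of 100 genes changed by a log2 fold change of 1. It recovered 100 of 100 changed by 2, and there were 13 false calls. In the mice themselves 6647 of 12100 genes were called. How many genes are recovered or falsely called at such a share was not tested.

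The 8 genes, the lists and the tests were chosen with earlier results of these data known. From each list the genes named are the 4 called ones that changed most and the 1 with the highest mean CPM. Likeness was taken over genes of at least 20 mean CPM. 1 gene of a list is not reported here.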

Additional observations from a re-analysis of the deposited data

Results flagged for a closer look

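In control mice, G6pc in hepatocyte-like cells had 1 value far above the others, 302 CPM in control 5, where the other 5 controls lay between 144 and 193 CPM. The hepatocyte-like share of kept cells had 1 control far below the others, 5.76% in control 2. The check for a single distant value was run on 18 groups of 6 mice and found these 2, where chance alone gives about 1 in 20.

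The portal-side effect on Fbp1 differed between anemic and control mice by -0.44 on the log2 scale (interaction term in edgeR, adjusted p = 0.031), with a higher portal side in 6 of 6 mice of each group. The landmarks that define the sides also moved with the groups, and their part in this difference was not tested.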

How the results depend on the processing

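In hepatocyte-like sums 6647 genes were called, and 6169 to 6638 with each mouse left out in turn. The count moved to 4393 with a mean of at least 50 UMIs, to 4038 in portal-side cells only, and to 802, 553, 323 and 552 in clusters 25, 26, 27 and 28 alone. Of the 8 genes, 5 were called, against 54.9% of all tested genes, and 3 in cells poor in markers of other classes, against 44.6%. In clusters 26, 27 and 28, 2, 1 and 1 were called higher, against 4.38%, 2.89% and 5.65% of all genes. The portal-side comparison called 4474 genes, and 2198 in anemic mice only. The difference in the hepatocyte-like share ran from 1.02 to 3.41 percentage points with each mouse left out, and up to 4.82 without erythroid-like cells in the denominator, and it passed the threshold under no setting tried.

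Fbp1, Slc37a4 and Pygl kept their direction and call under all settings tried on all hepatocyte-like cells or on either side of the landmark median. Signs turned mainly for genes near 0. Pck2 stood at -0.063 without TMM factors and at -0.34 and -0.37 in clusters 25 and 26. G6pc stood at -0.014 with DESeq2, -0.37 without TMM factors, -0.12 at a mean of at least 50 UMIs, -0.23 without called doublets, -0.14 in cells poor in markers of other classes, -0.068 at Leiden resolution 1, -0.11 in central-side cells, -0.62 and -0.11 in clusters 27 and 28, and between -0.13 and 0.20 with each mouse left out. Pcx stood at -0.16 without TMM factors, -0.059 without called doublets, -0.092 in cells poor in markers of other classes and -0.084 in portal-side cells. Gys2 stood at 0.062 with voom, 0.012 with no filter on low counts, 0.011 in cells of at least 2000 UMIs, 0.14 in central-side cells, 0.12 without anemia 2 and 3, 0.10 in cluster 25, and between -0.087 and 0.061 with each mouse left out. Pygl stood at -0.00057, -0.019 and -0.10 in clusters 26, 27 and 28. Among list genes, Phka2 (0.076) and Slc2a2 (0.33) turned in cluster 25, Pdk4 (0.40) in cluster 28, Txnip in clusters 26 (0.73) and 27 (0.19), and Igfbp1 (-0.11) in portal-side cells. In the portal-side comparison, Pck2 stood at -0.015 without called doublets, Slc37a4 at 0.22 in control mice only, Gys2 at -0.063 in anemic mice only, and Slc37a4 between -0.080 and 0.023 with each mouse left out. The cause of these moves was not tested.

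With the replicate number as a block, 6451 of 12100 genes and 4 of the 8 were called (Pcx was lost at an adjusted p of 0.082). Same-number correlations ran from -0.10 to 0.40 (over 0.1 in 2 of 6 pairs, with 3 of 12 mice best correlated with their own number), so the numbers were not taken as a pairing. Depth limits Pck2, with 8 to 31 UMIs per mouse.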
